A study of Persea americana and Macadamia integrifolia and Mangifera indica with 6 samples.

Results

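Small RNA was profiled in leaves of avocado (Persea americana, cultivar Hass), with 1 library from mature trees of 10 years and 1 from juvenile trees of 1 month. These are 2 of the 6 libraries of a study of juvenility in tree crops, and they were chosen by species, with every miRNA entry measured in them. Mature leaves came from field trees that were already flowering, grafted on Velvick rootstock and sampled in spring. Juvenile leaves came from seedlings raised in a nursery. At both ages the youngest fully expanded leaves were taken, and the methods describe pooling over plants or over positions on a tree without naming the pool that was sequenced. Age, seedling or grafted origin, any genetic difference between seedlings and grafted trees, and growing conditions cannot be told apart in this pair of libraries. The values analysed here are of miRNAs alone, so the leaf label was not checked against marker transcripts.

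The values listed 123 entries, 50 named after Arabidopsis and 73 after rice miRNAs, in 20 families. Where several entries of a family had the same value in each of the 6 libraries they entered only once, which left 53 distinct sequences, each called here by 1 of its entry names. RPM here takes reads of 20 to 24 nt as the whole library, and the smallest depth that turns every value into a whole number of reads was 7509125 reads in the mature and 4606100 reads in the juvenile library. Any whole multiple of these depths would fit as well. A floor of 3 reads is 0.400 RPM in the mature and 0.651 RPM in the juvenile library. Ratios and shares carry exact (Clopper-Pearson) 95% intervals, which cover counting error of independent reads only, and reads copied by PCR are not independent. With 1 library per age the spread between trees was not measured and no test was made, so "higher" and "lower" describe these libraries.

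Plant miRNAs are cut by DICER-LIKE1 from a hairpin precursor as a duplex of its 5p and 3p arms, of which usually 1 arm is loaded into ARGONAUTE1 and guides cleavage or translational repression of matching transcripts. In Arabidopsis miR156 and its close relative miR157 repress SPL transcription factors and hold the plant in the juvenile phase. SPL proteins in turn activate miR172 genes, and miR172 represses AP2-like repressors of flowering. The comparison asks how these and the other conserved families stood in leaves of flowering trees, set against leaves of seedlings.

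Mature sequences were at hand for 6 of the families, as the forward primers of the study's qRT-PCR, which its methods describe as the mature miRNA sequence. They are shown because these are the families the study followed by qRT-PCR, among them the age pathway pair. Letters run 5′ to 3′ as DNA, and capitals mark the seed, bases 2 to 8. No seed was shared between any pair of the 6, and the files do not say which entry of a family each primer matches.
miR156: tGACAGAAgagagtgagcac
miR172: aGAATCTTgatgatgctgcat
miR159: tTTGGATTgaagggagctcta
miR164: tGGAGAAGcagggcacgtgca
miR394: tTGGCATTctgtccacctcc
miR396: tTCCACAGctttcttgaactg

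Listed miRNAs took a smaller share of the small RNA in mature leaves. They summed to 420123 reads, 5.59% of reads of 20 to 24 nt (5.58 to 5.61), in the mature library, against 546174 reads and 11.9% (11.8 to 11.9) in the juvenile library, 2.12-fold lower. Of the 53 sequences 43 had at least 1 read in the mature and 40 in the juvenile library, and 29 in the mature and 32 in the juvenile library reached 10 RPM. Of the 15 families that reached 10 RPM in 1 library or both, 3 (20.0%) were at least 2-fold higher in mature leaves on the log2(RPM + 1) scale, namely miR172, miR171 and miR393. Another 8 (53.3%) were at least 2-fold lower, and the remaining 4, miR159, miR167, miR394 and miR160, lay under 2-fold. The median log2 ratio was -1.39, that of miR166. With each library rescaled to its summed listed miRNAs the split was 4 higher and 4 lower, and with the median family set to 0 it was 6 higher and 4 lower. The second rescaling puts as many families above 0 as below it by construction, so the split depends on the scaling chosen.

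**Figure D1:**
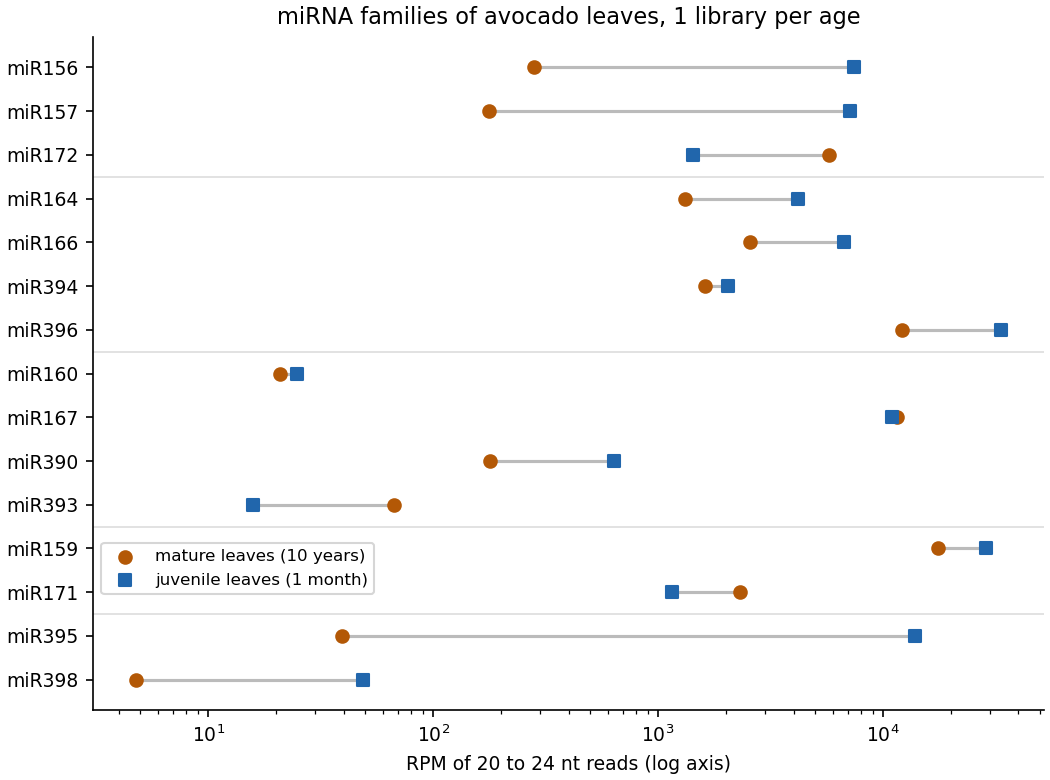
RPM of 20 to 24 nt reads (horizontal log axis) of the 15 families past 10 RPM in mature (circles) and juvenile (squares) avocado leaves, with 1 library per age and lines dividing the families by role. The widest gap is that of miR395, with 39.3 RPM in mature and 13884 RPM in juvenile leaves. miR172, miR393 and, by only 2.0-fold, miR171 lie to the right in mature leaves.

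The order of the families changed most through miR395, miR156 and miR157 on one side and miR172 and miR171 on the other. The mature library was led by miR159, miR396, miR167, miR172 and miR166, and the juvenile library by miR396, miR159, miR395, miR167 and miR156. miR395 stood at rank 13 in mature and rank 3 in juvenile leaves, miR156 at 9 in mature and 5 in juvenile leaves, and miR157 at 11 in mature and 6 in juvenile leaves. miR172 stood at rank 4 in mature and rank 10 in juvenile leaves, and miR171 at 6 in mature and 11 in juvenile leaves. miR164 and miR160 held ranks 8 and 14 at both ages. Across the 15 families Spearman's rho between the libraries was 0.589, as a description over families that share 2 libraries. The 3 leading families held 73.7% of listed reads in mature and 64.0% in juvenile leaves, so the mature profile was the more concentrated one, although the 2 leading families held nearly equal shares (53.1% in mature, 52.3% in juvenile leaves). Ranks within a library do not depend on how the library is scaled.

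**Figure D2:**
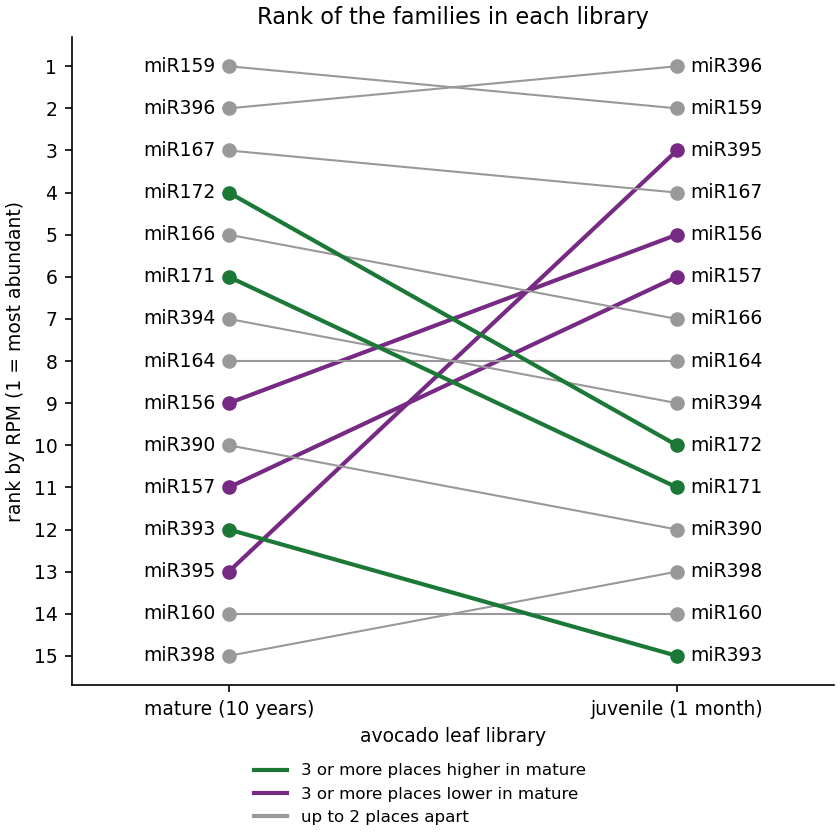
Rank of the 15 families by RPM (vertical axis, 1 is the most abundant) in the mature library on the left and the juvenile library on the right, with colour for families at least 3 places apart. miR395 crosses 10 places, while 9 families stay within 2 places.

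Of the 3 age pathway families, both SPL-directed ones were far lower in mature leaves and the AP2-directed one was higher. miR156, with the seed GACAGAA, had 282 RPM (2117 reads) in mature leaves, against 7439 RPM (34263 reads) in juvenile leaves, 26.4-fold lower (25.3 to 27.6). miR157 had 178 RPM (1333 reads) in mature and 7146 RPM (32917 reads) in juvenile leaves, 40.3-fold lower (38.1 to 42.6), so the intervals of these relatives lay apart. Whether reads of one were counted under the other was not tested. Summed, they held 0.821% of listed reads in mature and 12.3% in juvenile leaves, 31.7-fold lower in RPM (30.7 to 32.9). miR172, with the seed GAATCTT, had 5778 RPM (43386 reads) in mature leaves and 1432 RPM (6595 reads) in juvenile leaves, 4.04-fold higher (3.93 to 4.14), and its share of listed reads was 10.3% in mature and 1.21% in juvenile leaves. The order of these families by RPM was therefore opposite at the 2 ages. In mature leaves miR172 had 12.6 times the RPM of miR156 and miR157 together, and in juvenile leaves those had 10.2 times the RPM of miR172. A ratio inside 1 library is free of the scaling between libraries, but whether different sequences were captured equally was not tested. The whole list held 11.1% of listed reads in mature and 13.5% in juvenile leaves, and its median log2 ratio of -4.72, beside -1.39 over all families, is the value of miR156.

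Of the 4 leaf and organ development families past 10 RPM, 3 were lower by at least 2-fold in mature leaves, beside 53.3% of all families, and the median log2 ratio of the list was -1.42, beside -1.39 over all families. miR396, which restrains growth through GRF transcription factors, had 12167 RPM in mature and 33294 RPM in juvenile leaves, 2.74-fold lower (2.71 to 2.76), and was the family with the largest difference in RPM. miR166, which sets leaf polarity by repressing class III HD-ZIP genes, had 2564 RPM in mature and 6736 RPM in juvenile leaves, 2.63-fold lower (2.58 to 2.67). miR164, directed at NAC genes of organ boundaries, had 1312 RPM in mature and 4183 RPM in juvenile leaves, 3.19-fold lower (3.11 to 3.27). These 3 differences were near that of the median family, and with the median set to 0 their log2 ratios were -0.06, 0.00 and -0.28. miR394, which acts on the F-box gene LCR, had 1618 RPM in mature and 2036 RPM in juvenile leaves, 1.26-fold lower (1.22 to 1.29), and its log2 ratio of -0.33 turned to 0.75 and 1.06 under the 2 rescalings. miR319, directed at TCP genes, had 2 reads in mature and 0 in juvenile leaves, under the floor at both ages.

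The 4 auxin signalling families went different ways, with 1 higher, 1 lower and 2 under 2-fold, beside 20.0% higher and 53.3% lower over all families. The median log2 ratio of the list was -0.08, beside -1.39 over all families. miR393, which targets the TIR1 family of auxin receptors, had 67.3 RPM (505 reads) in mature and 15.8 RPM (73 reads) in juvenile leaves. It was 4.24-fold higher (3.31 to 5.5), the largest upward ratio of the 15 families at a low level, and its interval holds the miR172 ratio. miR390, which triggers the TAS3 small RNAs against ARF3 and ARF4, had 179 RPM (1341 reads) in mature and 635 RPM (2924 reads) in juvenile leaves, 3.55-fold lower (3.33 to 3.79). With the median family set to 0 its log2 ratio was -0.43. miR167, directed at ARF6 and ARF8, was the abundant member and nearly level, with 11507 RPM in mature and 10936 RPM in juvenile leaves, 1.05-fold higher (1.04 to 1.06). Because the listed total differed, that level RPM was 20.6% of listed reads in mature and 9.22% in juvenile leaves, and its log2 ratio of 0.07 became 1.16 and 1.47 under the rescalings. miR160, directed at ARF10, ARF16 and ARF17, had 20.8 RPM (156 reads) in mature and 24.8 RPM (114 reads) in juvenile leaves. The interval of its ratio, 0.655 to 1.08, holds 1, and its log2 ratio of -0.24 turned to 0.81 and 1.15 under the rescalings. The summed RPM of the list was 11774 in mature and 11612 in juvenile leaves, nearly all of it miR167.

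The 2 measured families directed at other transcription factors differed in direction, with a median log2 ratio of 0.15. miR159, which targets GAMYB-like genes, had 17563 RPM in mature and 28684 RPM in juvenile leaves, 1.63-fold lower (1.62 to 1.65), but took a larger share of listed reads in mature leaves (31.4%) than in juvenile leaves (24.2%), and its log2 ratio of -0.71 turned to 0.38 and 0.69 under the rescalings. It exceeded miR396 by 1.44 times in mature leaves, whereas miR396 exceeded it by 1.16 times in juvenile leaves. miR171, directed at GRAS genes of the HAM group, had 2319 RPM (17416 reads) in mature and 1159 RPM (5337 reads) in juvenile leaves. It was 2.0-fold higher (1.94 to 2.06), with a log2 ratio of 1.00 just inside the 2-fold threshold, and its interval runs below 2. The nearest family outside the threshold was miR159. miR169, the other family of this list, was not among the entries.

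miR395, which targets sulphate transporters and ATP sulphurylases, had the widest ratio of all families. It had 39.3 RPM (295 reads) in mature leaves, against 13884 RPM (63951 reads) in juvenile leaves, 353-fold lower (315 to 398). It made up 0.0702% of listed reads in mature and 11.7% in juvenile leaves, and its log2 ratio was -8.43, or -7.04 with the median family set to 0. Without miR395 the median log2 ratio of the families was -1.05. miR398, directed at copper superoxide dismutases, was also lower, with 4.79 RPM (36 reads) in mature and 48.6 RPM (224 reads) in juvenile leaves, 10.1-fold lower (7.11 to 14.9). Few reads lie behind this ratio, as its width shows. The other measured nutrient families were at or under the floor of 3 reads, and miR827, miR397 and miR857 were not among the entries. miR399, which acts on the phosphate regulator PHO2, had 1 read in mature and 0 in juvenile leaves. miR408, directed at copper proteins, had 0 reads at both ages, below the floor of 0.400 RPM in the mature and 0.651 RPM in the juvenile library.

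Families that act on the small RNA machinery itself were scarce among these entries. miR168, which targets ARGONAUTE1, was listed by a 3p entry alone and had 8 reads in mature and 18 in juvenile leaves, 3.67-fold lower (1.52 to 9.75). miR162, which targets DICER-LIKE1, had 12 reads in mature and 5 in juvenile leaves. Neither passed 10 RPM, and the interval of the miR162 ratio, 0.483 to 5.33, holds 1. No family directed at disease resistance genes was among the entries.

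**Figure D3:**
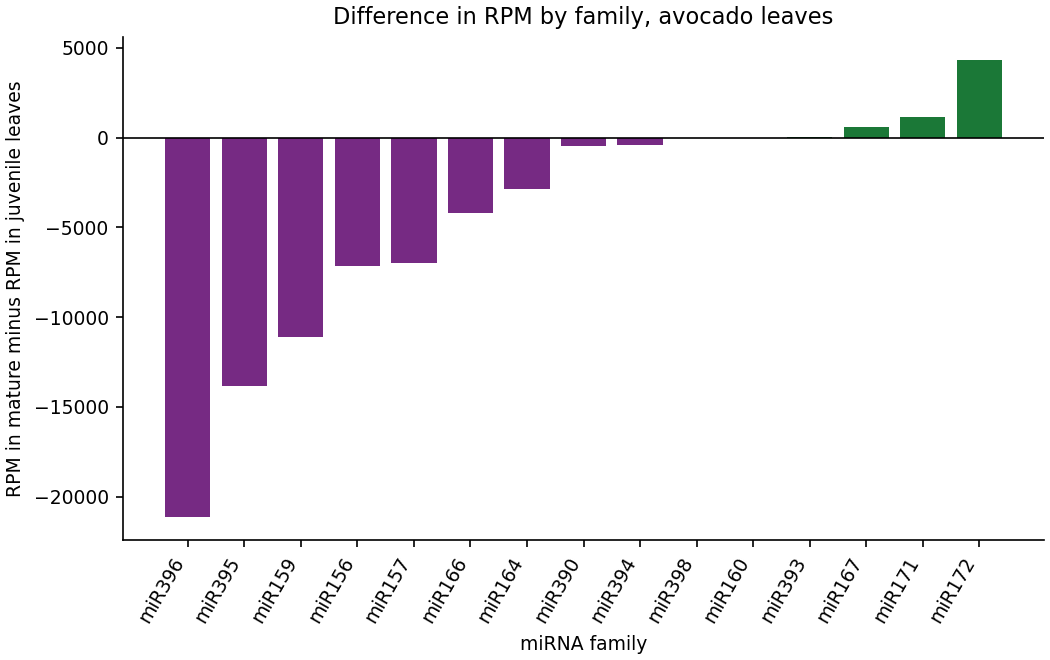
Difference in RPM of 20 to 24 nt reads, mature minus juvenile (vertical axis), for each of the 15 families past 10 RPM, ordered by size. miR396, miR395 and miR159 reach furthest below 0 and miR172 furthest above it, and the differences of miR398, miR160 and miR393 are too small to be seen at this scale.

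The lower listed total came mostly from 3 families, which were not those of the widest ratios apart from miR395. Over families, lower levels summed to 68187 RPM and higher levels to 6129.8 RPM. miR396, miR395 and miR159 together were 46093 RPM lower in mature leaves, 67.6% of that sum, and the largest upward difference was that of miR172 with 4346 RPM. In the plot of differences, miR159 stands close behind miR395 although its ratio is under 2-fold, because it was among the most abundant families at both ages.

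Single sequences lay on the side of their families, which is partly built in because a family sums its own main-arm sequences. Of 34 sequences past 10 RPM, 5 (14.7%) were higher by at least 2-fold in mature leaves and 17 (50%) were lower by that much. By their point ratios all 34 lay on the same side as their family, although some intervals, such as that of miR159c (0.775 to 1.05), hold 1. With the median family set to 0 the split was 13 higher and 7 lower. In 10 families 2 or more sequences of the main arm passed 10 RPM, and in 5 of them the intervals of the most different sequences lay apart. The clearest case was miR396. Its miR396a-5p sequence had 8301 RPM (62335 reads) in mature and 19678 RPM (90640 reads) in juvenile leaves, 2.37-fold lower (2.35 to 2.39). Its miR396b-5p sequence had 3865 RPM (29026 reads) in mature and 13615 RPM (62714 reads) in juvenile leaves, 3.52-fold lower (3.47 to 3.57). The a form therefore exceeded the b form by 2.15 times in mature and 1.45 times in juvenile leaves.

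The sequences of miR171 changed order between the ages. The Arabidopsis miR171b-3p sequence had 1195 RPM in mature and 531 RPM in juvenile leaves, 2.25-fold higher (2.15 to 2.35), and the rice miR171b sequence 1125 RPM in mature and 627 RPM in juvenile leaves, 1.79-fold higher (1.72 to 1.87). The Arabidopsis sequence thus held 51.5% of miR171 reads in mature and 45.8% in juvenile leaves, and the 2.0-fold of the family joins a member above and a member below the threshold. In miR164 the leading miR164a sequence had 1268 RPM in mature and 4111 RPM in juvenile leaves, 3.24-fold lower (3.16 to 3.32), while the minor rice miR164d had 40.9 RPM in mature and 61.0 RPM in juvenile leaves, 1.49-fold lower (1.26 to 1.76). The minor miR164c-5p, with 17 reads in mature and 53 in juvenile leaves, was 5.08-fold lower (2.90 to 9.36). In miR167 the rice miR167d-5p sequence had 11483 RPM in mature and 10919.6 RPM in juvenile leaves, and the minor miR167a-5p had 24.2 RPM in mature and 16.5 RPM in juvenile leaves, 1.47-fold higher (1.12 to 1.95).

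miR159 was held almost wholly by 1 sequence, miR159a, with 98.9% of its reads in mature and 99.2% in juvenile leaves. The 5 minor sequences had between 4.66 and 105 RPM in mature and between 11.1 and 126 RPM in juvenile leaves. Of these the rice miR159f was 2.38-fold lower (1.52 to 3.76), and miR159b-3p, with 14.4 RPM in mature and 15.0 RPM in juvenile leaves, was nearly level, with a ratio of 0.960 (0.703 to 1.32).

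In miR157, miR166, miR172, miR393 and miR395 the intervals of the most different members overlapped, which does not show that the members were alike. miR157a-5p was 40.8-fold lower (165 RPM in mature, 6732 RPM in juvenile leaves) and miR157d 33.4-fold lower (12.4 RPM in mature, 414 RPM in juvenile leaves). The Arabidopsis miR395a sequence was 347-fold lower (37.3 RPM in mature, 12944 RPM in juvenile leaves) and the rice miR395b sequence 471-fold lower (2.0 RPM in mature, 940.3 RPM in juvenile leaves), so both sequences of the family carried the difference. miR172a had 5760.2 RPM in mature and 1425 RPM in juvenile leaves, 4.04-fold higher (3.94 to 4.15), and the scarce miR172e-3p had 17.6 RPM in mature and 6.73 RPM in juvenile leaves, 2.61-fold higher (1.76 to 4.0). For miR393 the rice miR393a had 52.9 RPM in mature and 10.9 RPM in juvenile leaves, 4.87-fold higher (3.62 to 6.67), and the miR393a-5p sequence 14.4 RPM in mature and 4.99 RPM in juvenile leaves, 2.88-fold higher (1.82 to 4.74). In both families the scarce sequence had the smaller ratio, within intervals that overlapped, those of miR172 only narrowly. Within miR166, the rice miR166g-3p held 27.3% of reads in mature (26.7 to 27.9) and 33.3% in juvenile leaves (32.8 to 33.9), a difference beyond counting error between the 2 abundant members that the wide interval of the scarce miR166m hides in the comparison of extremes.

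**Figure D4:**
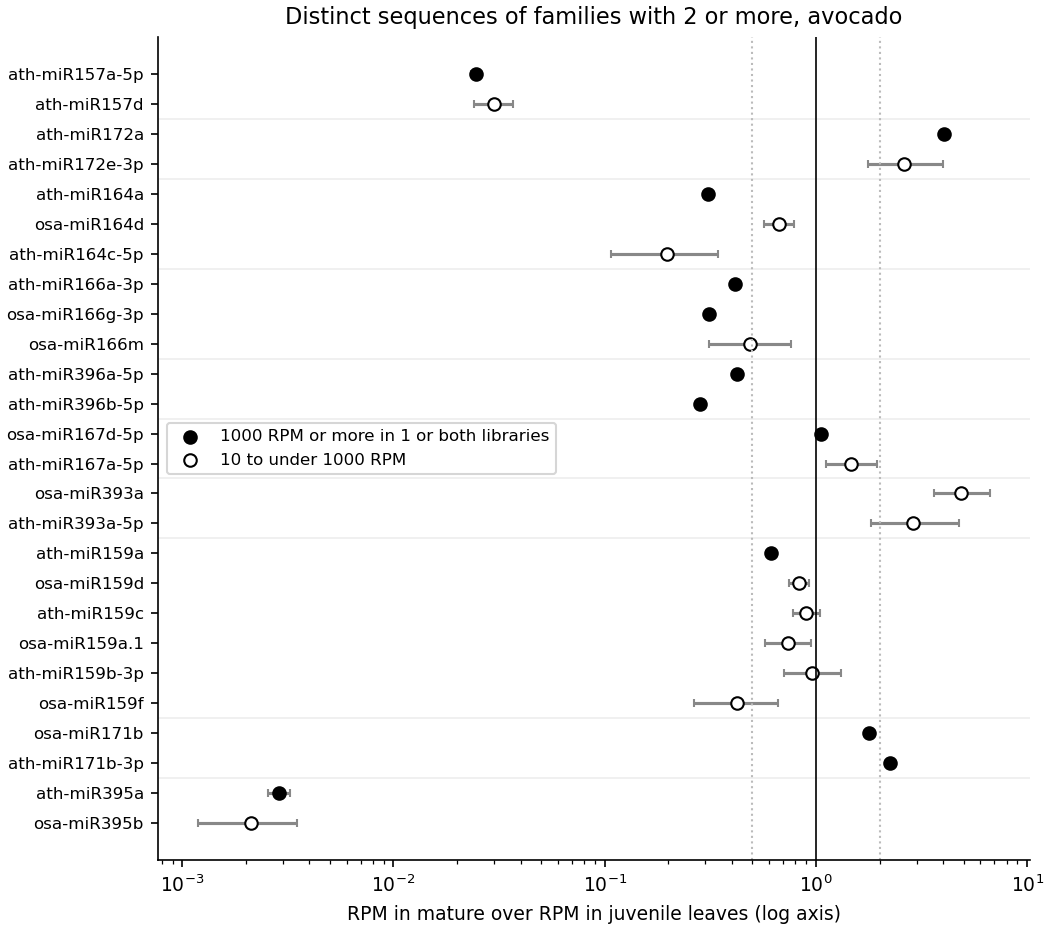
Ratio of mature over juvenile RPM (horizontal log axis) of the 26 sequences in the 10 families with 2 or more sequences of the main arm past 10 RPM, with exact 95% counting intervals as bars and the 2-fold limits dotted. The point ratios of a family's members lie on the same side of 1, although some miR159 intervals cross it. The intervals of the most different members lie apart in miR159, miR164, miR167, miR171 and miR396.

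Both arms of the hairpin were listed for 6 families, and the less abundant arm was seen in miR156, miR166 and miR396. In each of them the minor arm was lower in mature leaves, in the direction of the main arm. The 3p arm of miR156 had 15.2 RPM (114 reads) in mature and 232 RPM (1067 reads) in juvenile leaves, 15.3-fold lower (12.6 to 18.7), which is less than the 26.4-fold of the 5p arm. It therefore took 5.11% of the reads of both arms in mature (4.23 to 6.11) and 3.02% in juvenile leaves (2.84 to 3.20). The 5p arm of miR166 had 302 RPM (2265 reads) in mature and 617 RPM (2843 reads) in juvenile leaves, 2.05-fold lower (1.94 to 2.16), and its share was 10.5% in mature (10.1 to 10.9) and 8.39% in juvenile leaves (8.10 to 8.69). The 3p arm of miR396 had 31.0 RPM (233 reads) in mature and 69.7 RPM (321 reads) in juvenile leaves, 2.25-fold lower (1.89 to 2.67). Its share was 0.254% in mature and 0.209% in juvenile leaves, with overlapping intervals (0.223 to 0.289 in mature and 0.187 to 0.233 in juvenile leaves). These arm shares need no scaling between libraries, but the 2 arms listed need not come from the same hairpins. The 3p arm of miR156 was 1 sequence under 3 rice entries, and that of miR396 was 1 sequence under 1 rice entry. Their 5p arms pooled more entries. The minor arms of miR160, miR162 and miR390 had 0 reads at both ages, and for miR390 that allows a share of up to 0.275% in mature and 0.126% in juvenile leaves.

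**Figure D5:**
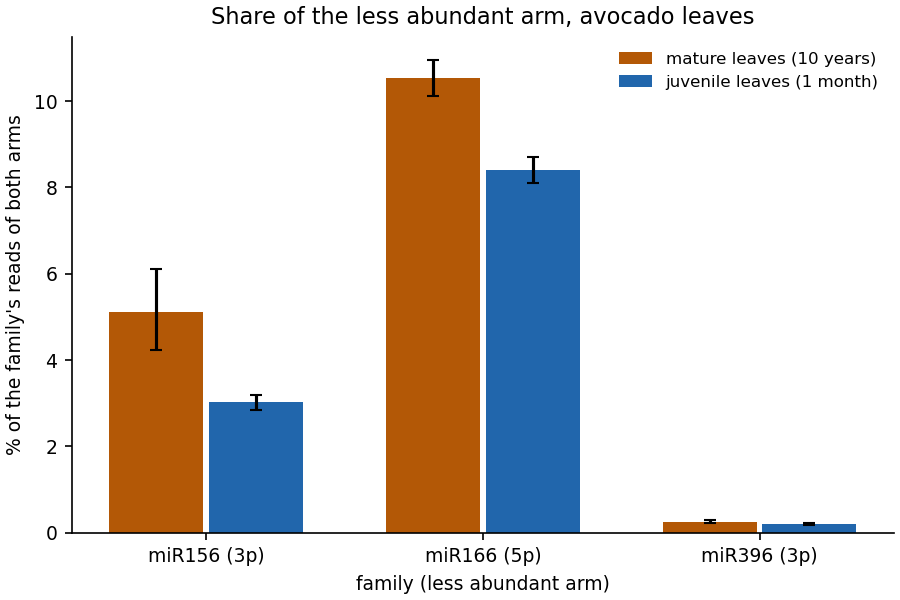
Share of the less abundant arm in a family's reads of both arms (vertical axis, percent) in mature (left bars) and juvenile (right bars) avocado leaves, with exact 95% counting intervals. The share is higher in mature leaves for miR156 and miR166 beyond the intervals, and below 0.3% at both ages for miR396.

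A few sequences are given here beside the 4 libraries of macadamia and mango, with their reads or shares. In both species juvenile trees were 1 month old. Mature trees were 10 years old in macadamia but 5 years old in mango. The rice miR167d-5p sequence held 99.8% of miR167 reads in both avocado libraries, against 59.1% in mature and 52.3% in juvenile macadamia and 0.188% in mature and 0.295% in juvenile mango. The minor miR159c sequence had 436 reads in mature and 297 in juvenile avocado leaves, and between 0 and 4 reads in the other libraries. Likewise osa-miR395b had 15 reads in mature and 4331 in juvenile avocado leaves, against 0 reads in both macadamia libraries. In mango it had 5 reads in mature and 0 in juvenile leaves, where the whole miR395 family had 3 reads. Its share of miR395 reads in mature mango, 11.4% (3.79 to 24.6), overlapped that in mature avocado, 5.08% (2.87 to 8.25). The rice miR159d had 790 reads in mature and 580 in juvenile avocado leaves, and between 0 and 3 reads in the other libraries. Not all sequences compared set avocado apart, since the rice miR398b and the Arabidopsis miR395a led their families in all 6 libraries. The rice miR166g-3p held 27.3% of miR166 reads in mature and 33.3% in juvenile avocado. Its share was 12.1% in mature and 24.1% in juvenile macadamia, and 0.187% in mature and 0.167% in juvenile mango. With a single pair of libraries per species these differences between species have no test.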

How the data were processed

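Small RNA libraries were made from leaf total RNA with a NEXTflex kit and sequenced as single reads. The authors trimmed adapters (Trim Galore), discarded ribosomal reads (BBduk), kept short reads and quantified miRNAs with SCRAM, using mature sequences of Arabidopsis and rice taken from miRBase. For tool versions nothing is given in the sources used here. The deposited values are RPM relative to reads of 20 to 24 nt, with 3 decimals. Avocado sequences that differ from the Arabidopsis and rice ones can be missed by such counting, and every value is a share of the library, so other small RNAs move all values of a library together.

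Columns were matched to libraries by their headings (0 columns were left unused). Entries of a family that agreed in each of the 6 libraries were taken as 1 sequence. Each family was summed over distinct sequences of the arm with more reads in avocado, plus entries whose name gives no arm. Ratios of mature over juvenile leaves were taken on RPM, and log2 ratios after adding a pseudocount of 1 RPM, so that changes of scarce families are understated. Families and sequences with at least 10 RPM in 1 or both libraries were counted at 2-fold. Depth was the smallest whole number of reads that made all 43 values above 0 in the mature and all 40 in the juvenile library whole within rounding. The depth search and the intervals were tested on simulated data. With 1 library per age no test was made.

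Every measured family was named, sequences where a family had 2 or more past 10 RPM, and arms where both were listed and 1 passed 10 RPM. miR159c, miR395b and miR167d-5p were compared with other species after their values were seen. So were miR159d, miR166g-3p, miR398b, miR395a and miR167a-5p. Families were grouped in 8 lists by known role. The members and lists were chosen with earlier results of these data known. Alternatives were both arms summed, the leading sequence alone, other choices of the main arm, no filter or one of 50 RPM, pseudocounts of 0.1 and 5 RPM, 2 rescalings, thresholds of 1.5-fold and 4-fold and every entry counted. Pooling miR156 with miR157 and leaving out miR395 were added after seeing the data. Python 3.11.15, numpy 2.4.6, pandas 2.3.3, scipy 1.17.1 and matplotlib 3.10.9 were used. The study's qRT-PCR values were not used here. In avocado the study reported by qRT-PCR that miR156 was lowest and miR172 highest in mature trees. It reported no significant difference with age for miR164, miR394 and miR396, and no correlation of miR159 with age.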

Additional observations from a re-analysis of the deposited data

Results flagged for a closer look

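Of the 15 families past 10 RPM in avocado, 4 met a rule for opposite log2 ratios in another species. The rule asked for opposite signs, at least 2-fold in both species, and at least 10 RPM in both. Opposite signs with a ratio under 2-fold were left out. Among these were miR159, with -0.71 in avocado and 1.93 in mango, and miR160, with -0.24 in avocado and 3.32 in mango. These differences were not tested because each species has a single library per age. Mature trees were 10 years old in avocado and macadamia but 5 years old in mango. Listed miRNAs took 5.54% of reads in mature and 7.55% in juvenile macadamia, and 16.6% in mature and 7.77% in juvenile mango. Their share was lower in mature avocado and higher in mature mango, and ratios of the other species were not rescaled. miR166 had -1.39 in avocado and 1.66 in mango, a difference of -3.05. Under the 2 rescalings its avocado value was -0.31 and 0.00, so this case depends on the scaling. miR171 had 1.00 in avocado, against -2.97 in macadamia and -2.37 in mango, differences of 3.97 and 3.37. miR393 had 2.02 in avocado and -3.48 in mango, a difference of 5.50. miR398 had -3.10 in avocado and 1.07 in macadamia, a difference of -4.17, with 36 reads in mature and 224 in juvenile avocado leaves. miR395 had -8.43 in avocado and 1.57 in mango, where it stayed under 10 RPM at both ages.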

How the results depend on the processing

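No paired analysis was possible because there is 1 library per age. Of 90 family log2 ratios under the alternatives, 72 stayed on the same side of 2-fold and 6 changed sign, those of miR159, miR394 and miR160 under the 2 rescalings. miR171 had 0.84 with its leading sequence alone and was just short of 2-fold with a pseudocount of 5 RPM. The median log2 ratio of the families was -1.36 with both arms, -1.25 with the leading sequence alone, -0.71 with no filter, -0.31 rescaled to the listed sum, and -1.05 both with miR156 and miR157 pooled and without miR395. Families lower by at least 2-fold numbered 4 after rescaling to the listed sum, 4 with the median family at 0 (with 6 higher) and 4 at a 4-fold threshold. Sequences higher by at least 2-fold numbered 3 with a filter of 50 RPM, 3 with a pseudocount of 5 RPM, 11 with every entry counted (65 lower) and 13 with the median family at 0 (7 lower), and at 4-fold 2 were higher and 7 lower. The listed share was 19.3% in mature and 46.8% in juvenile leaves with every entry counted, since identical entries repeat the same reads, and 5.56% in mature and 11.8% in juvenile leaves with the main arm of each family alone. Choosing the main arm over all 6 libraries left the counts of families and their median as they were. Depth limits the families under 10 RPM and miR398, miR160 and miR393, which rest on 36 to 505 reads per library.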

Other observations

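Sequences listed only under rice names (24 of the 53) held 24.9% of listed reads in mature and 13.5% in juvenile avocado leaves. The 18 listed only under Arabidopsis names held 34.0% in mature and 42.0% in juvenile leaves, and the 11 with names of both held 41.1% in mature and 44.5% in juvenile leaves. The rice miR167d-5p sequence made up most of the first group. Of the 53 sequences 39 had reads at both ages, 9 had 0 reads at both, 4 were seen in mature leaves alone with 3 reads or fewer each, and 1, the Arabidopsis miR156h, in juvenile leaves alone with 7 reads.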
